A study of Homo sapiens with 4 samples.

Results

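The genes described here are 9 genes that write, erase or read DNA methylation, chosen by name from the 15357 genes of the count and FPKM tables. They comprise 4 writers (DNMT1, DNMT3A, DNMT3B and UHRF1), 3 erasers (TET1, TET2 and TET3) and 2 readers (MBD1 and MBD2), and all 9 were found in both tables. RNA-seq was performed on RKO cells, a human colorectal cancer line in which many CpG islands are hypermethylated. Stable lines were made by lentiviral infection, with 2 samples of cells carrying the control vector and 2 samples carrying CHD7 shRNA-2 (shCHD7_2), so both groups had been infected, and no uninfected cells were compared here. The knockdown group rests on 1 shRNA in 1 cell line. Nothing in the labels states that the 2 samples of a group came from separate cultures. The p-values therefore measure the spread between these samples, moderated over all genes, and that spread may be technical.

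Methyl groups on the cytosines of CpG dinucleotides are copied after DNA replication by DNMT1, which UHRF1 brings to hemimethylated DNA, and are placed on unmethylated DNA by DNMT3A and DNMT3B. The TET dioxygenases oxidise 5-methylcytosine, which leads to its loss through dilution or base excision repair. MBD1 and MBD2 bind methylated CpG and recruit repressor complexes. MBD2 does so with the NuRD complex, which holds the chromodomain helicases CHD3 and CHD4. CHD7, the target of the knockdown, is another chromodomain helicase that moves nucleosomes.

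CHD7 mRNA was at 85.4 and 91.0 CPM (TMM-scaled counts relative to library size) with vector and at 55.5 and 50.1 CPM with shCHD7_2, a log2 fold change of -0.74 (95% interval -0.92 to -0.56). The libraries held between 15734679 and 16068650 estimated counts, with TMM scaling factors between 0.983 and 1.02. Of 9 epithelial markers, 7 were listed and 4 tested, and none of the 4 passed. KRT18 was at 71.2 ± 3.92 (SD, n = 2) and 79.4 ± 7.22 (SD, n = 2) CPM in control and shCHD7_2 samples, and KRT8 at 21.7 ± 1.34 (SD, n = 2) and 19.1 ± 0.0664 (SD, n = 2) CPM. Log2 fold changes were 0.16 for KRT18, -0.18 for KRT8, 0.02 for EPCAM and 0.05 for CDX2, while CDH1, KRT20 and LGALS4 had at most 1 count in any sample. Fibroblast markers reached at most 7 counts, their summed level lying between 0.03 and 0.05 FPKM with vector and between 0.11 and 0.13 FPKM with shCHD7_2, and of 7 leukocyte markers 3 were listed, at most at 2 counts except for the lysosomal protein CD68, which many cell types make. CD68 was at 907.8 and 850.2 CPM with vector and at 997.2 and 1024.4 CPM with shCHD7_2, without overlap (log2 fold change 0.20, edgeR adjusted p = 0.0624), and its part in other differences was not tested.

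The 9 genes spanned from near absence to the upper part of the transcriptome, and the erasers were the least abundant class (levels per gene length, in FPKM, fragments per kilobase of transcript scaled to depth). DNMT1, the maintenance methyltransferase, was highest, with 39.8 and 41.0 FPKM with vector and 44.1 and 43.9 FPKM with shCHD7_2, above 86.7% of all listed genes by its mean. UHRF1 followed with 29.6 and 27.1 FPKM with vector and 30.7 and 30.3 FPKM with shCHD7_2. The readers lay together, MBD1 between 18.9 and 20.5 FPKM and MBD2 between 17.9 and 19.1 FPKM, and their ranges over the 4 samples overlapped. A gap then separated the de novo methyltransferases and the erasers. DNMT3B lay between 4.26 and 4.72 FPKM, TET3 between 3.66 and 4.56, DNMT3A between 3.10 and 3.55, and TET2 between 2.49 and 3.09. In that order the ranges of DNMT3B and TET3 overlapped, while TET3 and DNMT3A, and DNMT3A and TET2, were next to each other without overlap.

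**Figure D1:**
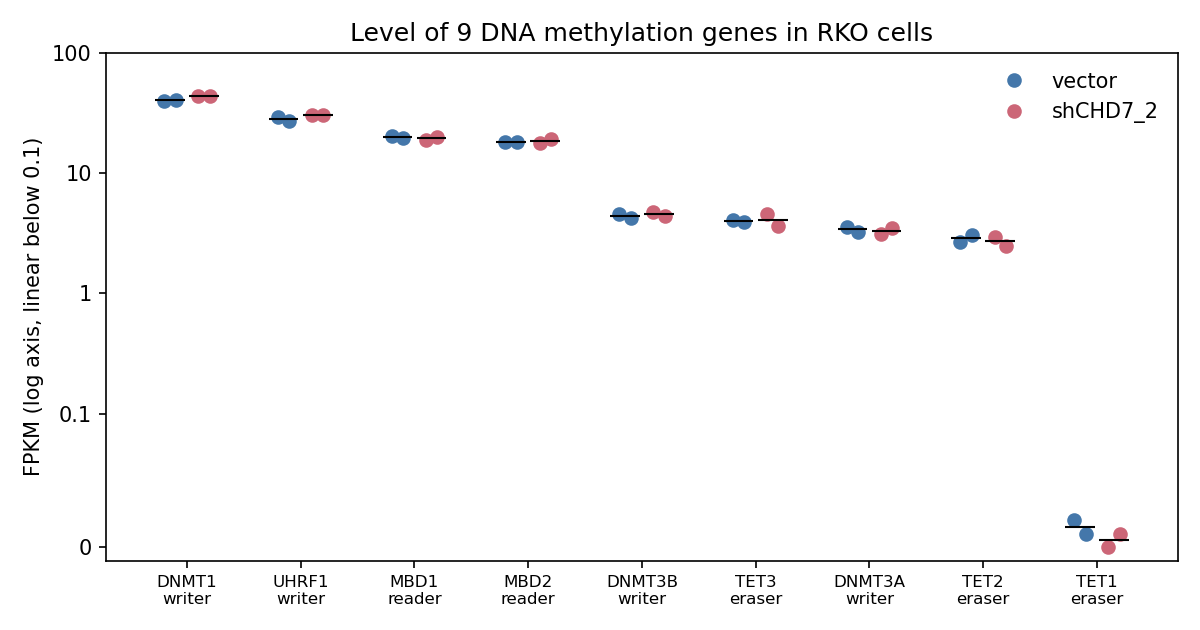
Deposited FPKM values (vertical axis, logarithmic and linear below 0.1) of the 9 genes in each sample, with black lines at the mean of the 2 samples of a group. DNMT1 and UHRF1 are highest, and TET1 is at or below 0.02 FPKM in every sample.

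TET1 was almost silent in these cells. It had 5 and 2 counts with vector and 0 and 2 counts with shCHD7_2, or at most 0.02 FPKM, and only 5.89% of listed genes had a lower mean. It was removed by the filter on low counts, and no fold change is given, since 3 of its 4 samples lie at or under a floor of 3 counts. Nearly all TET mRNA came from TET2 and TET3, and TET3 made up 60.4% and 55.8% of the summed TET FPKM with vector and 60.7% and 59.4% with shCHD7_2. DNMT1 made up between 83.0% and 84.9% of the summed FPKM of the 3 DNA methyltransferases. The ratio of summed methyltransferase to summed TET FPKM was 7.08 and 6.91 with vector and 6.91 and 8.42 with shCHD7_2, so that only shCHD7_2 replicate 2 stood apart.

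The windows upstream of TET1 and DNMT1 are shown because these are the least and the most abundant of the 9 genes. Both were taken from RefSeq on GRCh38.p14, cover the 250 bases before the first listed transcription start on the strand of the gene (plus for TET1, minus for DNMT1), and carry each CpG in capitals.
TET1 at chr10:68560087-68560336: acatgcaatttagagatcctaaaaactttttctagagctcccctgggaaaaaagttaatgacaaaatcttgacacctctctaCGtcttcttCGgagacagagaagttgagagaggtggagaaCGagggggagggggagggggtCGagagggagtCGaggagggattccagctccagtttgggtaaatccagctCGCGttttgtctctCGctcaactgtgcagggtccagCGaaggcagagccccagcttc
DNMT1 at chr19:10194954-10195203: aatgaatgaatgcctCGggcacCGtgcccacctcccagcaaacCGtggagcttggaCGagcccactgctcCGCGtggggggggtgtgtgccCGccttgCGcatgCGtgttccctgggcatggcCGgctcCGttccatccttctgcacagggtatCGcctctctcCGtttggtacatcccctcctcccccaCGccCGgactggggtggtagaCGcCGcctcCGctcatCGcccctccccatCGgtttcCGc

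The TET1 window holds 9 CpG and the DNMT1 window 21. All 9 genes matched the RefSeq table, some with several starts. Over windows that also hold the 50 bases after the start, 300 in all, TET1 had 10, 6 and 11 CpG at its 3 starts, against a median of 14 over 35116 windows. DNMT1 had 30, UHRF1 between 36 and 46, TET3 33 and 45, DNMT3A between 18 and 46, MBD1 27 and MBD2 32. TET2 had 13 and 35, and DNMT3B had 3 at its 1 listed start, which 81.8% of windows equalled or exceeded. DNMT3B thus had the fewest CpG in a listed window, and any relation of these counts to expression was not tested. Every listed start of DNMT1, DNMT3B and UHRF1 lies more than 1 kb inside the gene as GENCODE gives it. The DNMT1 sequence printed here therefore precedes a RefSeq start and not the outer end of that gene. The TET1 starts with 6 and 11 CpG, and some of DNMT3A and TET3, also lie more than 1 kb inside their genes. CpG outside these windows was not counted. Methylation of these windows was not analysed here.

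None of the 8 genes tested changed detectably after CHD7 knockdown. Each of the 8 intervals, whose variances edgeR moderates over all genes, lay within a 1.5-fold change in either direction. In the edgeR quasi-likelihood fit over 11955 genes, 0 of the 8 reached an adjusted p under 0.05 (unadjusted p under 0.05 for 0 of 8, and 0 of 8 by DESeq2), where 11.5% of all genes tested did so. At the additional fold threshold of 1.5 used in the study, 0 of 8 were called, beside 2.88% of all genes. Of the 8, 3 had a log2 fold change above 0 and 5 below, with a median of -0.030, beside a median of 0.00056 over all genes tested. Groups did not overlap in CPM for DNMT1, DNMT3A and MBD1, or 37.5% of the 8, beside 53.7% of all genes tested. TET1 is not among these 8.

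**Figure D2:**
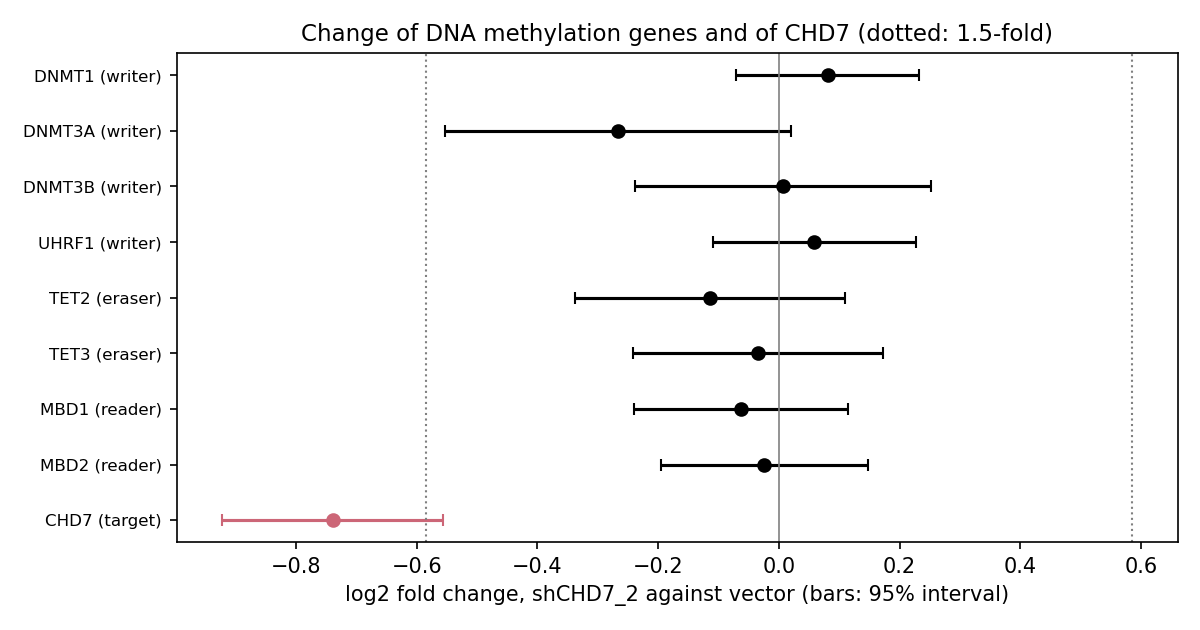
Log2 fold change of shCHD7_2 against vector (horizontal axis) for the 8 tested genes and for CHD7, with 95% intervals from the edgeR fit (n = 2 samples per group) and dotted lines at a 1.5-fold change. The intervals of the 8 genes include 0 and lie between the dotted lines, and that of CHD7 lies from -0.92 to -0.56.

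Among the writers, DNMT1 was at 211.2 and 218.5 CPM with vector and 226.5 and 227.9 CPM with shCHD7_2. Both shCHD7_2 samples were above both control samples, but the log2 fold change was only 0.08 (SE 0.073, edgeR adjusted p = 0.536), with an interval of 0.95 to 1.17-fold. UHRF1, which binds hemimethylated CpG and guides DNMT1, was at 113.6 and 104.1 CPM with vector and 113.6 and 113.2 CPM with shCHD7_2. Its control replicate 1 was as high as both knockdown samples, so the groups overlapped, with a log2 fold change of 0.06 (SE 0.081, edgeR adjusted p = 0.702). DNMT3B was at 18.4 and 17.2 CPM with vector and 18.5 and 17.2 CPM with shCHD7_2, almost the same pair of values in each group. Its log2 fold change was 0.0071 (SE 0.12, edgeR adjusted p = 0.980), with an interval of 0.85 to 1.19-fold.

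DNMT3A, a de novo methyltransferase with a full-length and a shorter form from separate promoters, had the largest difference of the 8. It was at 12.3 and 12.7 CPM with vector and 10.3 and 10.5 CPM with shCHD7_2, so both knockdown samples lay below both control samples. The log2 fold change of -0.27 (SE 0.14, unadjusted p = 0.067, edgeR adjusted p = 0.234) did not pass the threshold, and its interval ran from 0.68 to 1.01-fold. In FPKM the groups overlapped, with 3.55 and 3.27 with vector and 3.10 and 3.52 with shCHD7_2, and -0.03 on the log2(FPKM + 1) scale (limma adjusted p = 0.879). FPKM divides counts by a gene length, and the length implied by counts over FPKM was 3.42 and 3.81 kb for DNMT3A with vector and 3.38 and 3.01 kb with shCHD7_2. Its highest value was 1.27 times its lowest, a ratio larger than that of 99.6% of 10207 genes with a mean of at least 100 counts and 1 FPKM, whose median was 1.01. For the other 7 tested genes the ratio was at most 1.04. Both shCHD7_2 lengths of DNMT3A were below both vector lengths, though the closest pair, 3.42 and 3.38 kb, lay nearer to each other than either did to its own replicate. Which transcripts stand behind these lengths was not analysed here.

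**Figure D3:**
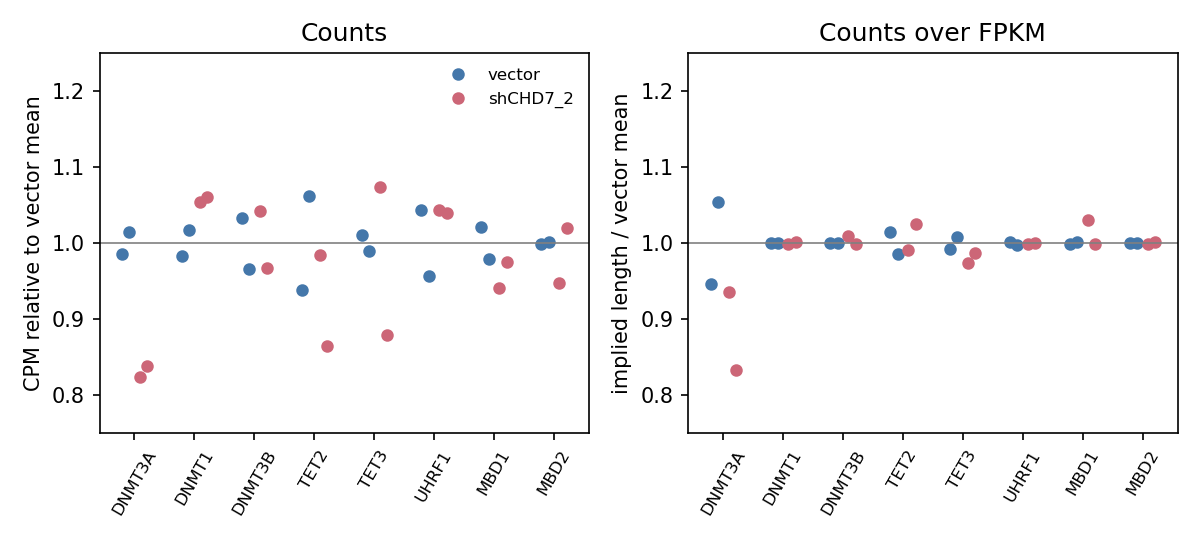
CPM (left) and the length implied by counts over FPKM (right), each relative to the mean of the vector samples, for the 8 tested genes in each of the 4 samples. DNMT3A is lower in both shCHD7_2 samples on the left, and it has the widest spread of implied length on the right, from 3.01 to 3.81 kb.

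The genes whose CPM pattern over the 4 samples was most like that of DNMT3A, by Euclidean distance of centred log2 CPM among 11955 genes, were PPP1R15A (0.013), PRELID2 (0.017) and RBBP7 (0.019). RBBP7, a histone-binding subunit of NuRD and other complexes, was at 144.9 and 151.0 CPM with vector and 121.1 and 122.5 CPM with shCHD7_2. Only 4 samples underlie these distances.

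The erasers TET2 and TET3 overlapped between the groups. TET2 was at 24.6 and 27.9 CPM with vector and 25.8 and 22.7 CPM with shCHD7_2, a log2 fold change of -0.11 (SE 0.11, edgeR adjusted p = 0.556). TET3 was at 41.4 and 40.6 CPM with vector, and its knockdown samples stood on either side of them at 44.0 and 36.0 CPM. Its log2 fold change was -0.035 (SE 0.10, edgeR adjusted p = 0.870). The intervals were 0.79 to 1.08-fold for TET2 and 0.85 to 1.13-fold for TET3.

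The readers also differed little between the groups. MBD1 was at 67.4 and 64.5 CPM with vector and 62.1 and 64.3 CPM with shCHD7_2, with the higher knockdown sample just under the lower control. Its log2 fold change was -0.06 (SE 0.085, edgeR adjusted p = 0.701). MBD2, the methyl-CpG reader of NuRD, was at 93.1 and 93.4 CPM with vector and at 88.3 and 95.1 CPM with shCHD7_2, which lay on both sides of the controls. Its log2 fold change was -0.024 (SE 0.083, edgeR adjusted p = 0.889), with an interval of 0.87 to 1.11-fold. The sign of the difference changed under at least 1 alternative for DNMT3B, UHRF1, TET3 and MBD2, so no direction is given for these 4. No alternative brought any of the 8 genes past the threshold.

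The word AGCTATT, the word GCTATTA that overlaps it, and a separate word, GAAGCTA, each of 7 bases, came from an earlier analysis of the same 4 samples and so are no independent support for any difference here. They were looked up on the sense strand of the longest 3′ UTR of each of the 9 genes (GENCODE 29, GRCh38). At least 1 word was present in DNMT3A and TET2 and in none of the other 7 genes, while 22.3% of the 11693 tested genes that have a 3′ UTR in the annotation hold one. The sites are shown in 30 bases each, on the strand of the gene (minus for DNMT3A, plus for TET2), with the words in capitals.
DNMT3A at chr2:25231866-25231895: tcagcccgtgcAGCTATTtacctctgttgc
DNMT3A at chr2:25230305-25230334: tgcctaagcagGAAGCTAgtttccagcagg
TET2 at chr4:105241392-105241421: cctaatgtggcAGCTATTAgagaaatcatg
TET2 at chr4:105241539-105241568: ttagtaggcttAGCTATTctagggttgcca

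Neither DNMT3A nor TET2 passed the threshold, and the value of TET2 ran from -0.21 to -0.021 on the log2 scale when 1 sample was left out in turn, the latter without control replicate 2. Their 3′ UTRs are long, 6424 and 5331 bases, and 61.4% and 54.4% of tested genes whose 3′ UTR is within 1.5 times those lengths hold a word. TET3, with 6000 bases, holds no word. A word was present in 1 of 5 coding transcripts of DNMT3A whose 3′ UTR is annotated and in 5 of 5 of TET2. The longest 3′ UTR of TET2, which holds the printed sites, belongs to a transcript that ends inside the gene. The count of 5 takes any word in each transcript's own 3′ UTR, and does not show that all hold the printed sites. The part of these words in any difference was not tested. In the same annotation DNMT3A lies on chromosome 2 from 25227855 to 25342590, TET2 on chromosome 4 from 105145875 to 105279816, DNMT1 on chromosome 19 from 10133345 to 10231286, UHRF1 on chromosome 19 from 4903080 to 4962154, and TET1 on chromosome 10 from 68560656 to 68694482.

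The genes around the methylation cycle were read from the same fit. In 5 lists of partners, cofactors and other readers, 68 genes were tested, of which 3 rose and 7 fell at an adjusted p under 0.05 in edgeR, and none reached a 1.5-fold change. Over all genes tested, 4.94% rose and 6.54% fell by the same rule. The median log2 fold change of the 68 genes was -0.052.

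The supply of methyl groups held changes in both directions. Of 10 tested genes of folate and methionine metabolism, 1 rose and 2 fell, with a list median of -0.11. MTR, methionine synthase, fell from 79.5 ± 3.17 to 55.6 ± 3.26 CPM (mean ± SD, n = 2 each), a log2 fold change of -0.52 (SE 0.087, edgeR adjusted p = 3.5e-04). MTHFD1, which interconverts one-carbon folates, fell from 229.8 ± 11.9 to 180.4 ± 0.273 CPM (mean ± SD, n = 2 each), a log2 fold change of -0.35 (edgeR adjusted p = 0.00322). MTAP, which salvages methionine from methylthioadenosine, rose from 316.5 ± 17.1 to 429.2 ± 24.7 CPM (mean ± SD, n = 2 each), a log2 fold change of 0.44 (edgeR adjusted p = 3.6e-04). The enzymes that make S-adenosylmethionine and clear its product after methyl transfer did not pass, with log2 fold changes of -0.13 for MAT2A and -0.11 for AHCY.

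Among 18 tested genes that serve or follow the TET reaction, 2 rose and 2 fell, with a median of -0.028. IDH2, a mitochondrial source of the TET cosubstrate 2-oxoglutarate, rose from 60.7 ± 1.40 to 82.5 ± 0.0674 CPM (mean ± SD, n = 2 each), a log2 fold change of 0.44 (SE 0.084, edgeR adjusted p = 0.00108). OGDH, which consumes 2-oxoglutarate, rose by 0.43 on the log2 scale (edgeR adjusted p = 0.00281). GADD45B, a stress-induced protein linked to active demethylation, fell from 22.4 ± 0.266 to 16.2 ± 1.96 CPM (mean ± SD, n = 2 each), a log2 fold change of -0.47 (edgeR adjusted p = 0.0111). XRCC1, a scaffold of base excision repair, had a log2 fold change of -0.30 (edgeR adjusted p = 0.0464). TDG, the glycosylase that removes oxidised methylcytosine, did not pass, at 0.03 (edgeR adjusted p = 0.883).

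Of 13 tested writer partners, EHMT2 fell and none rose, with a median of 0.0034. EHMT2, a histone H3 lysine methyltransferase, went from 103.6 ± 7.78 to 84.2 ± 2.86 CPM (mean ± SD, n = 2 each), a log2 fold change of -0.30 (edgeR adjusted p = 0.0232). PCNA, the replication clamp to which DNMT1 binds, was at 190.9 and 190.7 CPM with vector and 218.0 and 225.9 CPM with shCHD7_2, without overlap, but did not pass (edgeR adjusted p = 0.0575). TRIM28 was at 0.14 on the log2 scale (edgeR adjusted p = 0.283). DNMT1 and UHRF1 are transcribed mostly in dividing cells, and beside them the median over 25 S-phase genes was 0.05 on the log2 scale, with CCNE1 and RRM2 higher and TYMS, GINS1 and SLBP lower at an adjusted p under 0.05 in edgeR. The part of cell cycle distribution in these values was not tested.

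Of the 11 genes tested in the list of other readers, which holds MBD family members whatever they bind, 0 passed in edgeR (2 at an unadjusted p under 0.05 and 0 by DESeq2). KDM2A, a reader of unmethylated CpG, and MBD3 had the highest FPKM of the list, with log2 fold changes of 0.14 (edgeR adjusted p = 0.270) and -0.10 (edgeR adjusted p = 0.655). Of 16 subunits of the NuRD and related reader complexes, 2 fell, or 12.5%, beside 6.54% of all genes tested, and 0 rose. Of the 16, 12 had a value below 0, with a median of -0.13, beside a median of 0.00056 over all genes tested. MTA3 fell from 47.4 ± 0.0201 to 36.0 ± 0.877 CPM (mean ± SD, n = 2 each), a log2 fold change of -0.40 (SE 0.090, edgeR adjusted p = 0.00522), and RBBP7 fell by 0.28 on the log2 scale (edgeR adjusted p = 0.0194). The alternatives weigh on these calls unevenly. XRCC1 lost its call under 11 of 14 alternatives, EHMT2 under 8, GADD45B under 6 and RBBP7 under 5. MTHFD1 and MTA3 each lost it under 3, and MTR, MTAP, IDH2 and OGDH each under 2. Of the 68 genes, 6 passed without control replicate 1 and 4 passed without control replicate 2, beside the 10 with all samples.

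**Figure D4:**
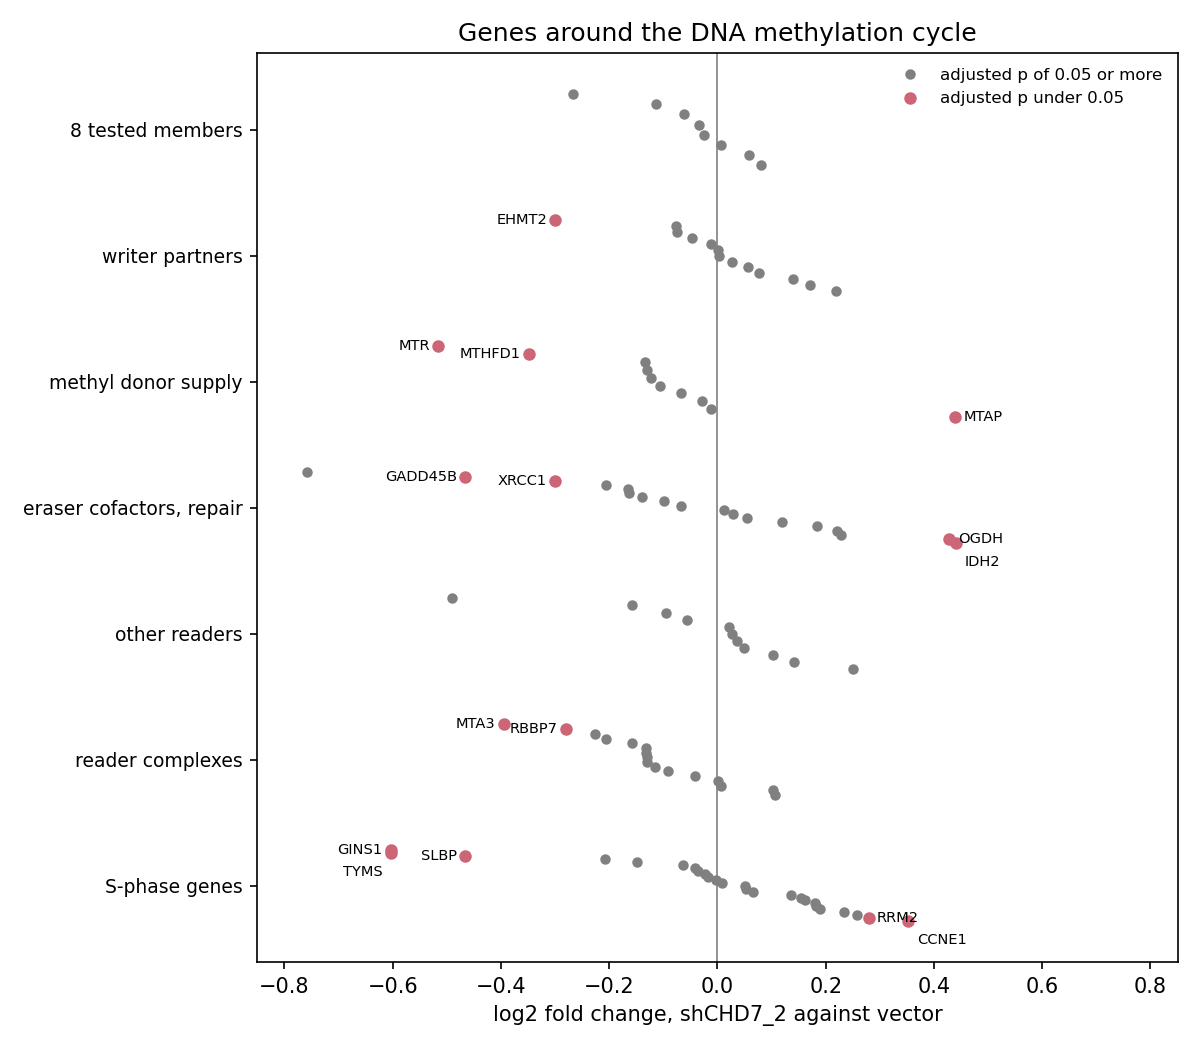
Log2 fold change of shCHD7_2 against vector (horizontal axis) for the tested genes of each list, sorted by value within a row, with genes at an adjusted p under 0.05 in edgeR in red and named. The 8 tested writers, erasers and readers (top row) are all grey, and 10 genes of the next 5 rows are red.

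Genes whose promoters are often methylated in colorectal cancer were read from the same tables, as RNA levels only, since methylation itself was not analysed here. Of 25 such genes, 15 were listed, and the other 10 were not analysed here. Of the 15, 6 had at most 5 counts in any sample. These were CDKN2A, an inhibitor of G1 kinases, with 2 and 1 counts with vector and 4 and 2 with shCHD7_2, and CACNA1G, IGF2, SFRP1, BMP3 and CDH13, of which IGF2 and CDH13 had 0 counts in all 4 samples. A count of 0 allows up to 3 counts per library, counting error only. CHFR, a mitotic checkpoint gene, had 26 and 16 counts with vector and 12 and 6 with shCHD7_2, and did not pass (edgeR adjusted p = 0.0653).

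The other 8 listed genes were expressed at a mean of at least 1 FPKM, among them MGMT, which repairs alkylated guanine, at 29.6 and 30.4 FPKM with vector and 29.6 and 32.2 FPKM with shCHD7_2. Of the 9 that were tested, NDRG4, a gene used in stool DNA tests for colorectal cancer, was the 1 that passed. That is 11.1%, beside 11.5% of all genes tested, so this share is near the background. At an unadjusted p under 0.05 in edgeR there were 5 of the 9, in both directions, and 1 passed by DESeq2. The share of all genes at that unadjusted level is not given here. NDRG4 was at 13.4 and 12.5 CPM with vector and rose to 21.0 and 18.7 CPM with shCHD7_2, a log2 fold change of 0.61 (SE 0.12, edgeR adjusted p = 0.00190). HIC1 was at 0.49 (edgeR adjusted p = 0.0921), DAPK1 at 0.19, SOCS1 at 0.10, MGMT at 0.06, RASSF1 at -0.0068, GATA4 at -0.12 and WRN at -0.19 on the log2 scale, and none of these passed. Germline genes that DNA methylation keeps silent in somatic cells were near 0 in both groups. Of 22, 8 were listed and 0 passed the filter on low counts, and the highest estimated count was 5.01, for SYCP3, of the synaptonemal complex, in a shCHD7_2 sample. The summed FPKM of the 8 was between 0.25 and 0.39 with vector and between 0.52 and 0.54 with shCHD7_2, a description over a few counts.

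**Figure D5:**
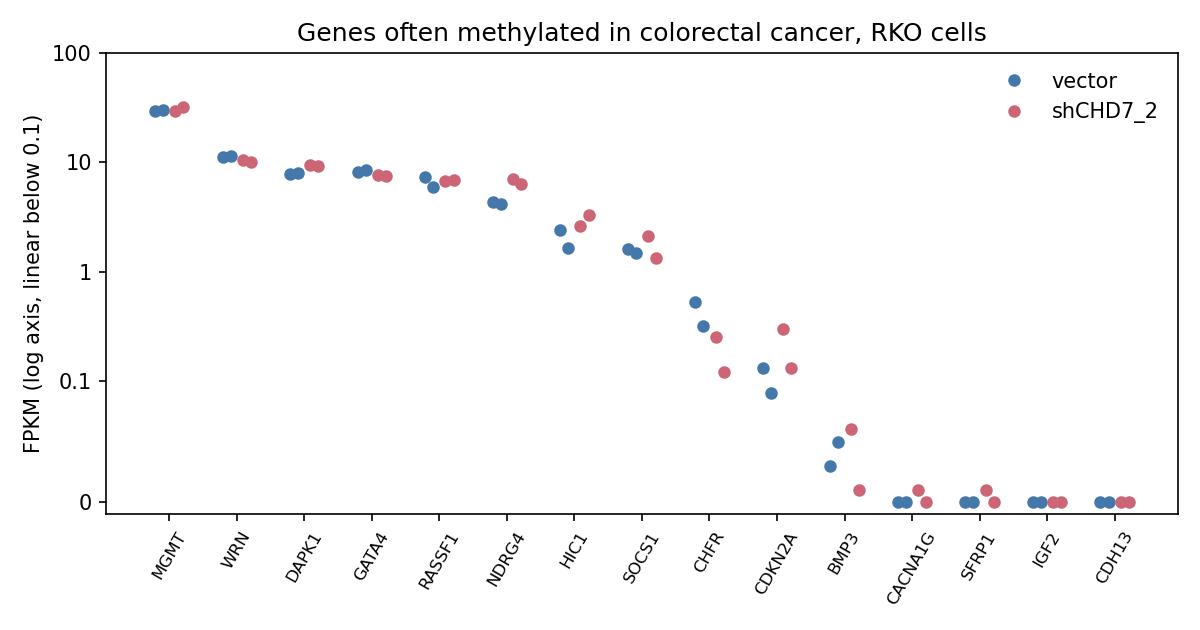
Deposited FPKM values (vertical axis, logarithmic and linear below 0.1) in the 4 samples for the 15 listed genes that are often methylated in colorectal cancer. Levels run from 32.2 FPKM for MGMT down to 0 for IGF2 and CDH13. NDRG4 is higher in both shCHD7_2 samples, and CHFR, which did not pass, is lower in both.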

How the data were processed

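RNA-seq was analysed in 2 control (vector) and 2 shCHD7_2 samples of RKO cells. The authors deposited estimated counts (expected counts) without normalization and FPKM values normalized for gene length and depth. Per the labels' processing notes, Bowtie2, RSEM and DESeq2 were used with hg38, without roles or versions. The annotation was not given in the sources used here. Between 13.6% and 14.7% of a sample's count values were not whole, but all 36 values of the 9 genes were. Counts were rounded and low ones removed with filterByExpr. The 11955 genes left were scaled by TMM and entered the edgeR 4.0.16 quasi-likelihood fit in R 4.3.3, with Benjamini-Hochberg adjustment over all of them. "Rose" and "fell" mean an adjusted p under 0.05. Standard errors and 95% intervals were derived from the F statistic with its degrees of freedom, 21.4 to 22.4 in total. Most of these come from the variance shared over all genes, so interval widths do not rest on a gene's own samples alone. Alternatives used DESeq2 1.42.0 and limma 3.58.1 on log2(FPKM + 1) or log2(FPKM + 0.1), other scalings and filters, a replicate block, and fits leaving out 1 sample. The tests were also checked on simulated data. With 2 samples against 2, a permutation cannot give a two-sided p below 0.333. Counts of replicates differed by more than sampling noise (chi-square per gene of 3.94 in control and 6.05 in shCHD7_2 samples), so each was kept as a sample.

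The genes, lists and tests were chosen with earlier results of these data known, and 1 gene was left out of the lists and is not reported here. Named genes are the 9 genes, CHD7, up to 6 genes per list past the threshold or else those with the highest FPKM, the methylation markers at a mean of at least 1 FPKM, and the 3 genes nearest to DNMT3A. MAT2A, AHCY, TDG, EPCAM, CDX2, CDH1, KRT20, LGALS4, CHFR, CDKN2A and the markers at or near 0 were added after their values were seen. Promoters came from RefSeq (GRCh38.p14) and gene positions and 3′ UTRs from GENCODE 29. For DNMT3A, implied length was compared with genes at a mean of at least 100 counts and 1 FPKM.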

Additional observations from a re-analysis of the deposited data

How the results depend on the processing

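With 14 alternatives for each of the 8 tested genes, 112 values were computed, and 0 passed the threshold. Of these, 99 kept their direction and 13 changed sign, all in genes near 0. MBD2 was at 0.019 with library totals, 0.017 and 0.018 in limma on log2(FPKM + 1) and log2(FPKM + 0.1), and 0.017 in limma without a filter, and TET3 was at 0.0095, 0.026, 0.030 and 0.026 under the same settings. Leaving out 1 sample in turn gave DNMT3B -0.052 to 0.060, MBD2 -0.079 to 0.024, TET3 -0.19 to 0.10 and UHRF1 -0.0032 to 0.12. The cause was not tested. Apart from the crossed pairing below, their lowest adjusted p was 0.211.

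Of all genes, 344 were called at 1.5-fold, 221 by DESeq2, 141 without a filter on low counts, 172 with limma on log2(FPKM + 1) and 8 with limma without a filter. The count at an adjusted p under 0.05 was 1373, against 800 by DESeq2, 197 without a filter, 8 with limma without a filter, and 607 to 1727 leaving out 1 sample (817 without control replicate 1 and 607 without control replicate 2). Called genes numbered 311 to 395 leaving out 1 sample. Of the 68 partner genes, 10 passed, but 0 without a filter in edgeR, 0 with limma without a filter, and 4 to 12 leaving out 1 sample. In a fit with a replicate block, the threshold was passed by 755 genes, 7 partner genes and 0 of the 8, and the calls of 3 named genes were lost, EHMT2, RBBP7 and XRCC1. Same-numbered samples deviated with a correlation of -0.198. With 2 samples per group, this value cannot show whether the numbers paired the samples. The crossed pairing, chosen after seeing the data, gave 3751 genes and 29 partner genes. DNMT3A had the lowest counts of the 8, 165 to 200 per sample, and the widest interval on the log2 scale, 0.68 to 1.01-fold. The part of depth in that width was not tested. TET1 could not be tested.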
